A study of Homo sapiens with 6 samples.

Results

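The BTG and TOB antiproliferative family holds 6 human genes, *BTG1*, *BTG2*, *BTG3*, *BTG4*, *TOB1* and *TOB2*, and all 6 were found by Ensembl identifier among the 58336 genes of the count table. The table covers A2780, an ovarian cancer cell line, treated with DMSO vehicle (3 libraries) or with 6 µM TH588 for 48 h (3 libraries), with replicates lettered A, B and C in each group. TH588 is a first-generation inhibitor of the nucleotide pool enzyme MTH1 that also stalls cells in mitosis. Every library came from the same cell line, grown in insulin-supplemented medium, and the labels give no duration for the DMSO treatment.

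BTG and TOB proteins share a conserved amino-terminal domain that binds the deadenylase subunits CNOT7 and CNOT8 of the CCR4-NOT complex, which shortens the poly(A) tail of messenger RNA. The TOB proteins also bind the cytoplasmic poly(A)-binding protein PABPC1 through their longer carboxy-terminal part. Forced expression of family members slows the entry of cells into S phase.

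Total counts ranged from 28537837 in TH588 replicate A to 99074175 in TH588 replicate B, and from 83144642 to 98176722 in the DMSO libraries. TH588 replicate A was the shallowest library, in which *SNORD3A*, a small nucleolar RNA, made up 21.9% of all counts, against 7.68% to 12.95% in the other libraries. Of 7 markers of ovarian carcinoma or epithelium, only *KRT18* and *EPCAM* were abundant enough to test, and both rose, with log2 fold changes of 0.88 and 2.87. *EPCAM* went from a mean of 0.643 ± 0.212 to 4.74 ± 0.350 CPM (SD, n = 3 each). *MUC16* had 0 counts in every DMSO library and a mean of 0.122 CPM with TH588, and *KRT8* had means of 0.0283 and 0.159 CPM. *PAX8*, *WT1* and *CDH1* were below 0.1 CPM on average in both groups. The summed level of the 7 markers was 3.82 to 4.60 CPM with DMSO and 10.9 to 12.2 CPM with TH588, and its part in the results was not tested. The leukocyte and endothelial markers *PTPRC*, *CD3E*, *PECAM1* and *VWF* were also below 0.1 CPM on average in both groups. Of the stromal collagens, *COL1A2* rose (log2 fold change 1.37) and *COL1A1* did not pass the test. CPM are read counts scaled to a common library size after TMM normalization, and values for 3 libraries are given throughout in the order of replicates A, B and C.

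Promoters of the members were taken from RefSeq on GRCh38.p14, and all 6 genes had an entry. The stretches before the start site are shown for the 3 members whose transcripts rose and, for comparison, for *BTG3*, whose transcript did not pass the test. Bases that the count table or the GENCODE annotation places in an exon of the gene are left out. *BTG2* is shown from chr1:203305269-203305490 on the plus strand, *BTG1* from chr12:92145898-92146096, *TOB1* from chr17:50866355-50866604 and *BTG3* from chr21:17612948-17613151, all on the minus strand. *TOB1* has 2 RefSeq start sites, and the stretch shown lies before the downstream one. The gene as counted begins at the upstream start, at position 50867978, so the stretch shown lies within it. The window of the upstream start held no match to any motif searched. Capitals mark matches, on either strand, to the CCAAT box, to the core of the cyclic AMP response element and to the forkhead site, whose letters are given after the sequences.
BTG2: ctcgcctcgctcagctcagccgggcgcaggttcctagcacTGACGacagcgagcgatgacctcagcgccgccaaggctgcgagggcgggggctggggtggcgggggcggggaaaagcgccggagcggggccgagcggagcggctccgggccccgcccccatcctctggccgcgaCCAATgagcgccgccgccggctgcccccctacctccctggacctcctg
BTG1: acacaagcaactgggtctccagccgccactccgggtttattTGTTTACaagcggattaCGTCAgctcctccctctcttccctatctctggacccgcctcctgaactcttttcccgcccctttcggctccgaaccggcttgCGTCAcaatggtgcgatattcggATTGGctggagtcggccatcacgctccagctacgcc
TOB1: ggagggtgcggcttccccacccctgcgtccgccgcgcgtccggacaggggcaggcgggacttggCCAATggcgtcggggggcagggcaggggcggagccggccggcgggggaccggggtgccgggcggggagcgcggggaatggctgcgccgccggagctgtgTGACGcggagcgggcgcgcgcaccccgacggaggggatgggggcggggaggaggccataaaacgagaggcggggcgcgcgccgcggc
BTG3: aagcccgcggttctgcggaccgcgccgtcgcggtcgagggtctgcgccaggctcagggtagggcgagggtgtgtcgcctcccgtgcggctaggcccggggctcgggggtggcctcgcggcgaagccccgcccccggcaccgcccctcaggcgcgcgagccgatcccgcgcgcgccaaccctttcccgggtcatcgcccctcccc

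A CCAAT, the letters of a box bound by NF-Y, lay in the window from 250 bases before to 50 bases after the start in *BTG1*, in *BTG2* and at the downstream start of *TOB1*. It was not in the windows of *BTG3*, *BTG4* or *TOB2*, nor in that of the upstream *TOB1* start. The same letters were held by 34.6% of the 35116 RefSeq promoter windows. TGACG, the core of a cyclic AMP response element, was in the same 3 windows and was held by 24.6% of all windows. GTAAACA, the letters of a forkhead site, was found only in *BTG1* among the member windows, starting at position -209, and 3.42% of all windows held it. TATAAA was found in *BTG1* alone, starting at position -33, inside the annotated exon and so outside the stretch shown. It was held by 11.5% of all windows. GGGCGG, the letters of a GC box, was in every member window other than that of the upstream *TOB1* start and in 45.0% of all windows. TTTGAA was in none of the 7 windows of the 6 genes, against 15.2% of all windows. Every motif was searched on both strands. These matches are descriptions of letters. The motifs were chosen after the sequences and the results were seen.

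Of the 5 members abundant enough to test, *BTG2*, *TOB1* and *BTG1* were higher with TH588, and none was lower. In such bulk libraries, a change in how many cells express a gene and a change in RNA per cell cannot be told apart. At the threshold used, an adjusted p under 0.05, edgeR's quasi-likelihood test called 24.2% of the 15844 genes tested as higher and 25.3% as lower. No member was lower at an unadjusted p under 0.05 or by DESeq2 or limma-voom either, with 0 of the 5 in each case. *TOB2* and *BTG3* did not pass the test, and *BTG4* was too sparse to be tested. The median log2 fold change of the 5 tested members was 1.03, beside 0.019 for all genes tested.

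*BTG2*, which slows G1 progression and promotes deadenylation, showed the largest rise of the family. The gene lies on chromosome 1 of GRCh38 from 203305491 to 203309602 (ENSG00000159388) and has 2 exons that no other row of the table overlaps. The DMSO libraries held 1.14, 0.885 and 0.876 CPM of *BTG2*, the TH588 libraries 11.2, 10.5 and 8.99 CPM. Every TH588 library was thus far above every DMSO library. The raw counts behind these levels were 94, 73 and 82 with DMSO and 300, 1138 and 750 with TH588. The log2 fold change was 3.40 (SE 0.16, edgeR adjusted p = 2.82e-08), which is 10.5-fold with a 95% interval from 8.23 to 13.4. Only 0.543% of the genes tested had a larger log2 rise.

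*BTG1*, the closest relative of *BTG2* and a target of FOXO3 in other cells, was a low-abundance transcript that rose 2.05-fold. It lies on chromosome 12 from 92140278 to 92145897 (ENSG00000133639). The DMSO libraries held 1.70, 1.77 and 2.09 CPM of *BTG1*, the TH588 libraries 4.33, 3.36 and 3.82 CPM. The groups did not overlap, which held for 57.7% of all genes tested. The log2 fold change was 1.03 (SE 0.17, edgeR adjusted p = 0.000292), with a 95% interval of the fold from 1.59 to 2.65. Rows for *LINC01619* and *BTG1-DT* cover 17.1% of the exon bases of *BTG1*. How reads in shared bases were counted is not given in the sources used here, and those rows held at most 3 counts in any library.

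*TOB1*, named as a transducer of the receptor ERBB2, was the most abundant member per length in every library and carried the largest rise in absolute terms. It lies on chromosome 17 from 50862223 to 50867978 (ENSG00000141232). The DMSO libraries held 28.8, 31.3 and 31.3 CPM of *TOB1*, the TH588 libraries 91.1, 70.2 and 74.7 CPM. TH588 replicate A, the shallowest library, was the highest of the TH588 libraries. The log2 fold change was 1.37 (SE 0.10, edgeR adjusted p = 6.39e-07), a 2.58-fold rise with a 95% interval from 2.21 to 3.01. Without TH588 replicate A it was 1.26. The antisense row *TOB1-AS1* covers 11.1% of the exon bases of *TOB1* and held 2 counts over the 6 libraries.

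*TOB2*, its paralog on chromosome 22 from 41433492 to 41447023 (ENSG00000183864), did not pass the test. The DMSO libraries held 31.4, 29.0 and 27.2 CPM of *TOB2*, the TH588 libraries 27.4, 35.4 and 28.7 CPM. The groups overlapped, and TH588 replicate B alone lay above all DMSO libraries. The log2 fold change was 0.07 with a 95% interval from -0.17 to 0.30 (edgeR adjusted p = 0.633), so a change beyond 1.23-fold upward or to below 0.891 of the DMSO level lies outside the interval.

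*BTG3*, a member known to bind E2F1 and CHK1, did not pass the test either. It lies on chromosome 21 from 17593653 to 17612947 (ENSG00000154640). The DMSO libraries held 19.8, 18.3 and 19.4 CPM of *BTG3*, the TH588 libraries 20.2, 18.4 and 20.01 CPM. The ranges almost coincided. The log2 fold change was 0.03 with a 95% interval from -0.18 to 0.23 (edgeR adjusted p = 0.834).

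*BTG4*, which drives the clearance of maternal messenger RNA in oocytes, had 0 counts in all 3 DMSO libraries and 0, 1 and 4 counts in the TH588 libraries. Where no read was counted, up to 3 remain possible from counting error alone, which is 0.112 CPM in TH588 replicate A and 0.0276 to 0.0365 CPM elsewhere. A difference between the groups of that size or smaller was therefore not detectable at this depth. The gene lies on chromosome 11 from 111467526 to 111512354 (ENSG00000137707) and starts 584 bases from the hairpin of *MIR34B*, a microRNA gene on the opposite strand. The rows of *MIR34B* and *MIR34C* are listed at 0 in all 6 libraries. The libraries are described as polyadenylated RNA, yet the small nucleolar RNA *SNORD3A* held 7.68% to 21.9% of their counts. Whether they could capture microRNAs was not tested, so no conclusion is drawn from these rows. Of 15 genes known from oocytes, 11 were likewise too sparse to test. Of the 4 tested, 1 (25.0%, beside 24.2% of all genes tested) was higher. This was *GDF9*, with a mean of 0.260 ± 0.0795 CPM in DMSO and of 0.527 ± 0.0829 CPM in TH588 libraries (SD, n = 3 each, edgeR adjusted p = 0.0488). It did not pass with DESeq2, which called 0 of the 4 as higher, and no gene of this list was lower, with 0 at an unadjusted p under 0.05 and 0 by DESeq2 and limma-voom.

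**Figure D1:**
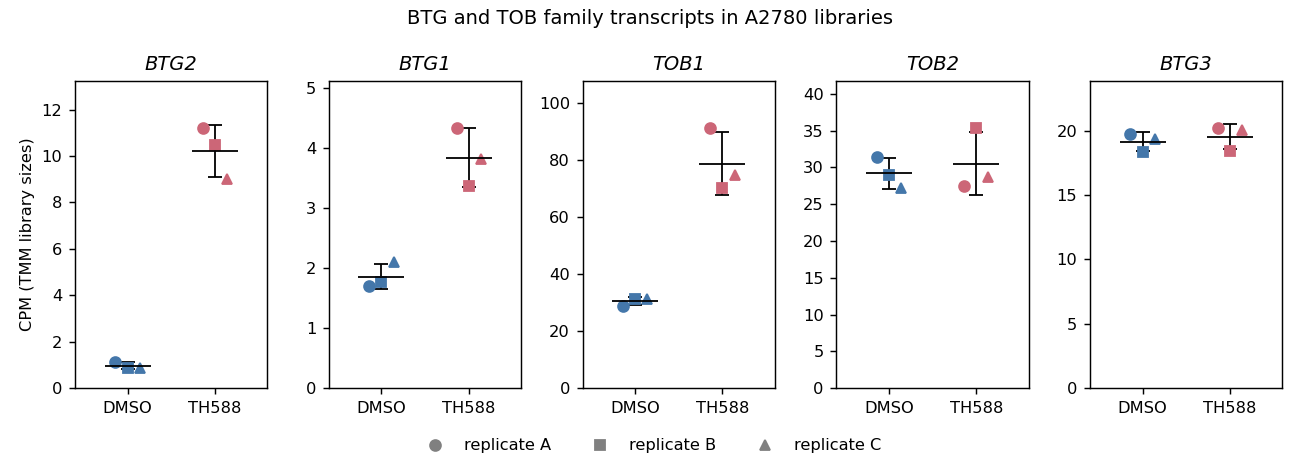
CPM at TMM library sizes (y axis, linear and from 0, with a separate scale in each panel) of the 5 tested members in the 3 DMSO and 3 TH588 libraries. Points are libraries, with marker shape for the replicate letter, and the black line and bar are the mean and SD. *BTG2*, *BTG1* and *TOB1* separate the groups, with *BTG2* at 0.876 to 1.14 CPM with DMSO and 8.99 to 11.2 CPM with TH588, while the groups overlap for *TOB2* and *BTG3*.

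To set the members against each other, levels were divided by the exon length in the count table and expressed as RPKM, which is CPM per kilobase of exon. With DMSO the order was *TOB1* at 12.1 ± 0.562 RPKM, *BTG3* at 8.30 ± 0.328 RPKM, *TOB2* at 6.40 ± 0.456 RPKM, *BTG1* at 0.382 ± 0.0429 RPKM and *BTG2* at 0.351 ± 0.0553 RPKM (SD, n = 3 each). *BTG1* and *BTG2* did not differ beyond their spread there, with 0.351 to 0.431 RPKM for *BTG1* and 0.318 to 0.415 RPKM for *BTG2*. That depends on the exon lengths used, 4854 bases for *BTG1* and 2757 for *BTG2*. In CPM, *BTG1* (1.70 to 2.09) lay above *BTG2* (0.876 to 1.14) in every DMSO library. *BTG3* lay above *TOB2* per length in every library of both groups, and below it in CPM. With TH588 the order was *TOB1* at 31.2 ± 4.38 RPKM, *BTG3* at 8.47 ± 0.430 RPKM, *TOB2* at 6.68 ± 0.934 RPKM, *BTG2* at 3.71 ± 0.410 RPKM and *BTG1* at 0.791 ± 0.0999 RPKM (SD, n = 3 each). Per length, *BTG2* thus moved from the level of *BTG1* to a place above it, with no overlap, and stayed below *TOB2*. In CPM it moved from below *BTG1* to above it.

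The summed level of the family was 27.5 ± 0.133 RPKM with DMSO and 50.9 ± 4.35 RPKM with TH588 (SD, n = 3 each). *TOB1* made up 81.9% of that difference and *BTG2* 14.4%, although the fold change of *BTG2* was the larger. *TOB1* held between 41.4% and 45.3% of the summed RPKM with DMSO and between 57.9% and 64.7% with TH588. *BTG2* went from 1.15% to 1.5% of the pool with DMSO to 6.70% to 7.90% with TH588. *BTG3* made up 30.2% ± 1.05 with DMSO and 16.7% ± 1.08 with TH588 (SD, n = 3 each), at a level that did not itself pass the test. These shares describe the pool and carry no test.

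**Figure D2:**
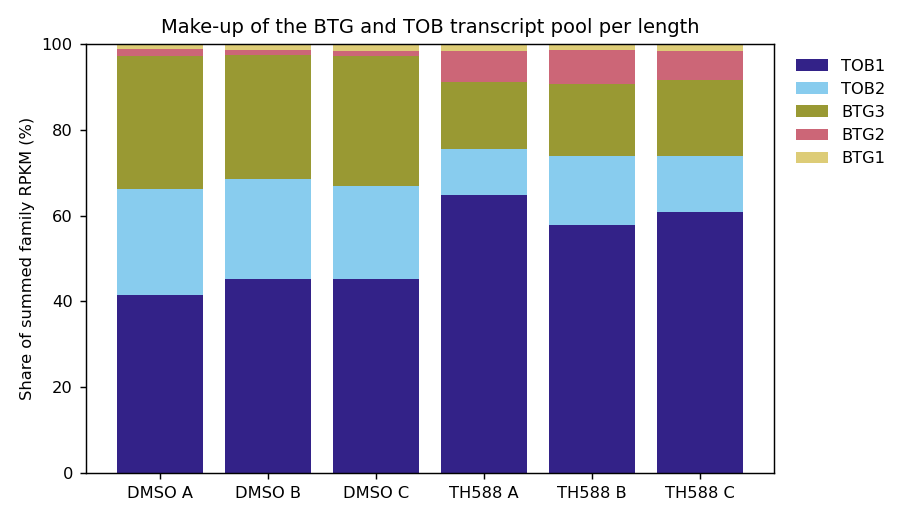
Share of each member (%, y axis) in the summed RPKM of the family, with 1 bar per library and members stacked. *TOB1* takes 41.4% to 45.3% in the DMSO bars and 57.9% to 64.7% in the TH588 bars, and *BTG4* is too sparse to be seen.

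Ratios within a library do not depend on how libraries are scaled to each other. The *BTG2* to *BTG1* ratio per length, on the log2 scale, was 0.24, -0.18 and -0.44 in the DMSO libraries against 2.19, 2.45 and 2.05 in the TH588 libraries. The difference was 2.36, or 5.12-fold, and every TH588 library lay above every DMSO library. The log2 ratio of *TOB1* to *TOB2* was 0.73, 0.97 and 1.06 with DMSO and 2.59, 1.84 and 2.23 with TH588, a difference of 1.30, or 2.47-fold. An exact two-sided permutation test gave p = 0.1 for each of the 2 ratios (also 0.1 after Benjamini-Hochberg adjustment), the smallest p that 3 libraries against 3 allow, so neither could pass 0.05 in this design.

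The transcripts of the catalytic subunits that BTG and TOB proteins bind moved in opposite directions. *CNOT7* fell from 85.9, 74.6 and 88.6 CPM in the DMSO libraries to 44.05, 49.0 and 44.8 CPM in the TH588 libraries. Its log2 fold change was -0.85 (SE 0.09, edgeR adjusted p = 8.77e-06). *CNOT8* rose from 29.4, 32.3 and 31.0 CPM to 49.6, 52.8 and 54.4 CPM in the same order of libraries, its log2 fold change being 0.76 (SE 0.08, edgeR adjusted p = 1.02e-05). Neither group of libraries overlapped the other for either gene, which held for 57.7% of all genes tested. Per length, *CNOT7* at 7.59 ± 0.679 RPKM and *CNOT8* at 7.86 ± 0.381 RPKM were level with DMSO. With TH588 they stood at 4.20 ± 0.244 and 13.3 ± 0.619 RPKM (SD, n = 3 each). Their place against each other depends on the exon lengths in the count table, 10943 bases for *CNOT7* and 3930 for *CNOT8*. Without length, the means of *CNOT7* and *CNOT8* were 83.0 and 30.9 CPM with DMSO and 45.9 and 52.3 CPM with TH588. The *CNOT8* to *CNOT7* ratio per length was 0.952, 1.21 and 0.974 in the DMSO libraries against 3.14, 2.998 and 3.38 in the TH588 libraries. Its change between the groups does not depend on length. This ratio was chosen after the values were seen and carries no test. Other genes share 2.22% of the exon bases of *CNOT7* and 4.15% of those of *CNOT8*.

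**Figure D3:**
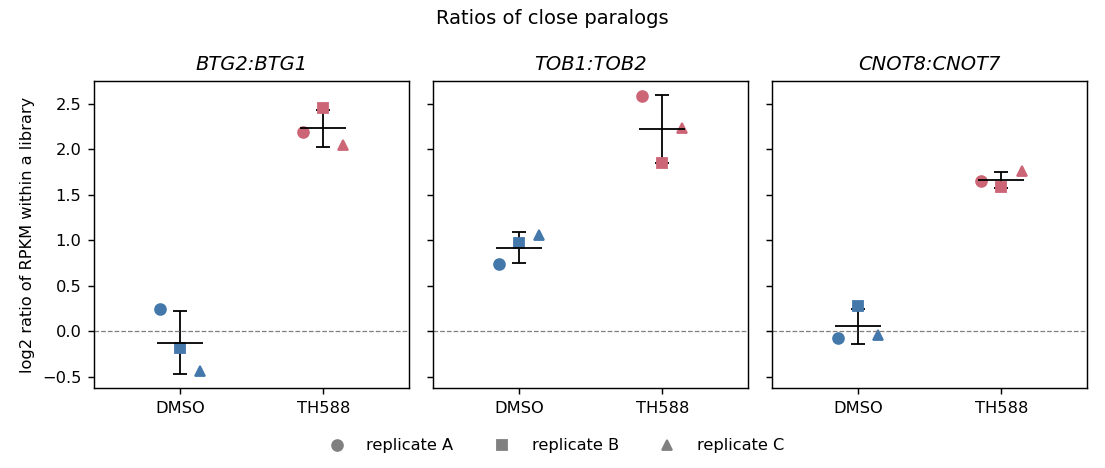
log2 ratio of RPKM within each library (y axis, shared by the panels) for *BTG2* to *BTG1*, *TOB1* to *TOB2* and *CNOT8* to *CNOT7*. Points are libraries, and the black line and bar are the mean and SD of 3. The dashed line marks equal levels per length, and where a ratio lies against it depends on the exon lengths used. All 3 ratios are higher in every TH588 library than in every DMSO library, with *CNOT8* to *CNOT7* close to 0 with DMSO and between 1.58 and 1.76 with TH588.

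Of the 11 listed CCR4-NOT subunits, all could be tested, with a median log2 fold change of -0.05. Called higher were 2 (18.2%, beside 24.2% of all genes tested), and called lower were 4 (36.4%, beside 25.3%). With any 1 library left out, 3 were lower, since *CNOT11* (log2 fold change -0.25, edgeR adjusted p = 0.0487) no longer passed. *CNOT6*, a deadenylase of the other kind in the complex, rose from 64.6 ± 2.12 to 97.4 ± 5.45 CPM (SD, n = 3 each), or by 0.59 on the log2 scale (edgeR adjusted p = 5.5e-05). Its paralog *CNOT6L* did not pass the test (log2 fold change -0.05, edgeR adjusted p = 0.702). *CNOT9* and *CNOT10*, which do not cut poly(A) themselves, fell by 0.68 and 0.39 on the log2 scale, the latter not past the threshold with library size only. *CNOT1*, the scaffold, had a mean of 925 ± 6.40 CPM in DMSO and of 851 ± 50.9 CPM in TH588 libraries (SD, n = 3 each), on the log2 scale -0.12 (95% interval -0.29 to 0.05, edgeR adjusted p = 0.216).

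Among 9 genes of the second deadenylase PAN2-PAN3, the nuclease PARN and the poly(A)-binding proteins with their partners, 3 were higher and 4 were lower, with a median log2 fold change of -0.22. Those are 33.3% and 44.4%, beside 24.2% and 25.3% of all genes tested. *PAN2* rose from 9.51 ± 1.45 to 17.7 ± 0.720 CPM (SD, n = 3 each), or by 0.89 on the log2 scale. *PAIP2*, an inhibitor of poly(A)-binding protein, rose with a log2 fold change of 0.76, although another row covers 21% of its exon bases, and *PAN3* rose by 0.29. The call of *PAN3* was lost without DMSO replicate A (0.24), DMSO replicate B (0.32) or TH588 replicate C (0.28). *PABPC4* fell from 260.8, 232.2 and 260.2 CPM in the DMSO libraries to 97.8, 105.0 and 94.7 CPM in the TH588 libraries, which is -1.34 on the log2 scale (SE 0.08, edgeR adjusted p = 1.8e-07). *PABPC1*, the partner of the TOB proteins, was much more abundant and fell less, from 1802 ± 85.6 to 1461 ± 89.0 CPM (SD, n = 3 each), or -0.30 on the log2 scale. With library size only, *PABPC1* was not past the threshold. It has processed pseudogenes close to it in sequence, so its count is uncertain. *PABPC1* was named for its binding to TOB proteins, outside the rule for named genes. *PAIP1* and *PARN* fell by 0.68 and 0.41 on the log2 scale, *PARN* not past the threshold with library size only.

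Of 15 genes for decapping and 5′ decay, 1 was higher and 7 were lower, and the median log2 fold change was -0.25. These counts are 6.67% and 46.7%, beside 24.2% and 25.3% of all genes tested. The decapping cofactor *DCP1B* rose with a log2 fold change of 0.68, and *LSM6*, *LSM5* and *LSM3*, which encode subunits of the LSM ring, had the largest falls, with log2 fold changes of -1.01, -0.87 and -0.70.

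Adaptors outside the family that also bring CCR4-NOT to messenger RNA went both ways. Of 20 listed, 19 could be tested, 5 were higher and 4 were lower, with a median log2 fold change of 0.10. Both shares, 26.3% and 21.1%, were near the 24.2% and 25.3% of all genes tested. *ZFP36*, which encodes the AU-rich element binding protein tristetraprolin, was 1.34, 1.82 and 1.96 CPM in the DMSO libraries against 12.6, 9.31 and 9.71 CPM in the TH588 libraries. Its groups were far apart, and its log2 fold change of 2.61 (SE 0.18, edgeR adjusted p = 3.35e-07) was the second largest among the adaptors and family members together, after *BTG2*. *CPEB4* and *ZFP36L1* rose with log2 fold changes of 0.94 and 0.82. *TNRC6C*, *ZFP36L2* and *TNRC6A* fell by 0.54, 0.33 and 0.22 on the log2 scale, and neither *ZFP36L2* nor *TNRC6A* passed the threshold with library size only. The call of *ZFP36L2* was also lost without DMSO replicate A (-0.20) or TH588 replicate C (-0.24). That of *TNRC6A* was lost without DMSO replicate A (-0.21), B (-0.24) or C (-0.19) and without TH588 replicate B (-0.17) or C (-0.19).

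**Figure D4:**
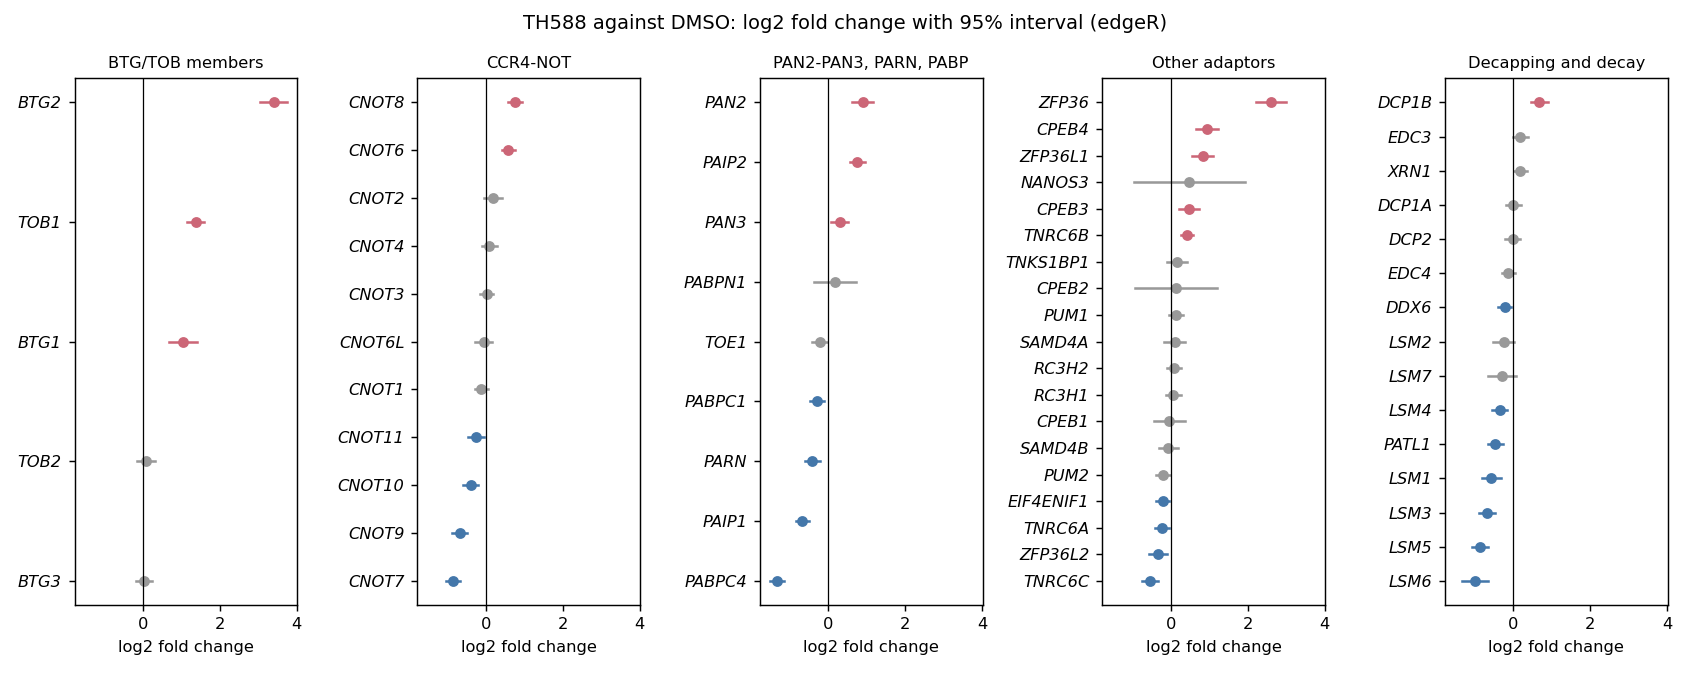
log2 fold change of TH588 against DMSO (x axis, shared scale) with its 95% interval for the tested genes of the family and of 4 lists around poly(A) shortening and decay. Red marks genes called higher, blue genes called lower and grey genes that did not pass an adjusted p of 0.05. *BTG2* (3.40) and *ZFP36* (2.61) lie farthest to the right and *PABPC4* (-1.34) farthest to the left.

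Proteins known to bind or modify family members formed a list of 12, of which 11 could be tested. Of these, 1 was higher and 6 were lower, and the median log2 fold change was -0.41. That makes 9.09% and 54.5%, beside 24.2% and 25.3% of all genes tested. The largest falls were those of *E2F1* and *CHEK1*, which encode the partners of BTG3, and of *SKP2*, which encodes the ubiquitin ligase subunit that marks TOB1 for degradation. *E2F1* was 18.8, 18.8 and 18.2 CPM in the DMSO libraries against 6.50, 7.89 and 5.70 CPM in the TH588 libraries, or -1.47 on the log2 scale (edgeR adjusted p = 2.24e-06). *CHEK1* and *SKP2* had log2 fold changes of -1.26 and -1.15. These 3 genes are also transcribed with the cell cycle. *ERBB2*, the receptor after which TOB1 was named, was higher with a log2 fold change of 0.28, a call that was lost without DMSO replicate B (0.25), DMSO replicate C (0.29), TH588 replicate B (0.20) or TH588 replicate C (0.28).

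Among the regulators *FOXO1*, *FOXO3*, *TP63* and *TP73* and the target *CCND1*, 4 genes could be tested, with a median log2 fold change of 0.09. By edgeR, 0 were higher and 1, *TP73*, was lower, or 0% and 25.0%, beside 24.2% and 25.3% of all genes tested. By an unadjusted p under 0.05, 1 was higher, as by DESeq2, against 0 by limma-voom. *CCND1*, whose transcription BTG2 and TOB1 are known to repress, was 67.5, 54.8 and 56.2 CPM in the DMSO libraries against 57.2, 69.6 and 58.6 CPM in the TH588 libraries. Its groups overlapped, and the log2 fold change was 0.06 (95% interval -0.17 to 0.29, edgeR adjusted p = 0.68). *TP73* had a log2 fold change of -0.53, which was not past the threshold with library size only, without DMSO replicate A (-0.43) or without TH588 replicate C (-0.45).

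The genes whose log2 CPM ran closest to each member over the 6 libraries were sought among the 9688 genes whose mean log2 CPM reached 2. For *BTG2* the closest were *PTPRH* and the immediate early gene *EGR1*, with Pearson's r of 0.9993 and 0.9991. *EGR1* was 21.8, 16.4 and 14.3 CPM in the DMSO libraries against 217.0, 217.5 and 175.9 CPM in the TH588 libraries, so that replicate C was the lowest library of each group. For *BTG2*, replicate C was the lowest with TH588, while DMSO replicates B and C were nearly equal at 0.885 and 0.876 CPM. For *BTG1* they were *BTBD9*, *KDM7A* and *RNF181* (r of 0.998 or more), and for *TOB1* they were *AMY2B*, *PRCP* and *LIFR* (r of 0.9984 or more). For *TOB2* they were *DNAJC5*, *SIPA1L3* and *B4GALT3*, with r from 0.9957 down to 0.9722, and for *BTG3* they were *FBXW8*, *SNORD3B-2* and *NUDT9*, with r from 0.9868 down to 0.9342. Other rows share 32.3% of the exon bases of *AMY2B*, 28.7% of those of *B4GALT3* and 11.1% of those of *FBXW8*, and *SNORD3B-2* is a near copy of *SNORD3A*, so these counts are uncertain. These libraries form 2 groups, so r for the members that rose mostly follows the difference between the groups, and it is given as a description.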

How the data were processed

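RNA described as polyadenylated was sequenced from 3 DMSO and 3 TH588 (6 µM, 48 h) libraries of A2780, given as biological triplicates. The authors aligned reads to GRCh38 with TopHat, counted them per gene with featureCounts 1.4.6 and deposited raw counts. How strand, overlapping genes and multiply mapped reads were handled is not given in the sources used here. Besides the shares given above, other rows cover exon bases of further named genes. These shares are 16.3% for *KRT18*, 12.9% for *TNRC6C*, 12.1% for *BTG3*, 10.3% for *CCND1*, 8.89% for *TP73*, 8.34% for *LSM3* and 7.41% for *ERBB2*.

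Of 58336 rows, 57754 matched a symbol by Ensembl identifier. The counts were fitted over the whole table with edgeR 4.0.16 in R 4.3.3 (TMM, default filter on low counts, quasi-likelihood test without a replicate term), with Benjamini-Hochberg adjustment over 15844 genes and a threshold of 0.05. The study's methods used DESeq2, run here as an alternative (1.42.0), as was limma-voom (3.58.1). SE, the standard error, was taken from the fold change and the F statistic. The members and gene lists were chosen with earlier results of these data known, and lists were written from general knowledge. Named genes are all members and, per list, the 3 largest rises and falls among called genes whose groups did not overlap and whose average log2 CPM reached 2, with *CCND1*. *PABPC1*, *CNOT1*, *CNOT6L*, *CNOT11*, *GDF9*, *EPCAM*, *COL1A1*, *COL1A2* and the markers near 0 lie outside this rule and were named after their values were seen. A listed gene, a motif and a gene of similar pattern are not reported here. Replicate libraries differed by more than sampling noise (chi-square per degree of freedom of 23.5 to 165.3), so each counted as 1 replicate.

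Alternatives were scaling by DESeq2's size factors or by library size only, removal of the 10 most abundant genes, DESeq2, limma-voom, the absence of a filter, a minimum of 10 counts per library, an adjusted p under 0.01, each library left out in turn and the replicate letter as a block. For the shares, lengths of the count table were set against no length, and RefSeq lengths were not run.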

Additional observations from a re-analysis of the deposited data

How the results depend on the processing

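The rises of *BTG2*, *TOB1* and *BTG1* kept their direction and their side of the threshold under all 15 alternatives run, with log2 fold changes from 3.33 to 3.55, from 1.26 to 1.46 and from 0.96 to 1.15. *TOB2* and *BTG3* passed the threshold under none of the same alternatives, with values from -0.06 to 0.18 and from -0.01 to 0.13. Their sign turned without TH588 replicate B for *TOB2* (-0.056, range with each library left out -0.056 to 0.147) and without DMSO replicate B for *BTG3* (-0.008, range -0.008 to 0.071). *CCND1* was -0.003 without DMSO replicate B and -0.039 without TH588 replicate B (range -0.039 to 0.178). None of these values was past the threshold, and the cause was not tested.

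With library size only, the called genes were 60.4% higher ones, with TMM 48.9%, and the median of all genes moved from 0.019 to 0.126. Under that scaling the CCR4-NOT list had 2 genes lower and a median of 0.047, the PAN2-PAN3, PARN and poly(A)-binding list 2 lower, the decapping list 3 higher and a median of -0.147, the other adaptors 1 lower, and the regulators 1 higher and 0 lower. Without a filter the other adaptors had 2 genes lower and the regulators 1 higher. At an adjusted p under 0.01 the other adaptors had 1 lower and the partners 0 higher. DESeq2 called 1 regulator higher.

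With each library left out in turn, the CCR4-NOT median ranged from -0.115 to 0, the decapping list had 1 to 2 genes higher (2 without TH588 replicate A) and a median from -0.31 to -0.175, the other adaptors had 1 to 4 lower, the partners 0 to 1 higher, and the regulators 0 to 1 higher (1 without TH588 replicate B) and 0 to 1 lower (0 without DMSO replicate A or TH588 replicate C). The CCR4-NOT median left the spread between replicates without TH588 replicate A (-0.115), and the decapping median without DMSO replicate A (-0.187), TH588 replicate A (-0.31) and TH588 replicate C (-0.175). The cause was not tested. On counts without length, *TOB1* held 37.3% of the family with DMSO and 54.9% with TH588, *TOB2* 35.8% and 21.5%, *BTG3* 23.5% and 13.7%, and *BTG1* 2.27% and 2.69%. The *BTG2* to *BTG1* difference ranged from 2.20 to 2.54 and that of *TOB1* to *TOB2* from 1.12 to 1.49 with each library left out. The *CNOT8* to *CNOT7* difference, examined after the values were seen, was 1.61 with a range of 1.55 to 1.72.

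The labels do not say whether the replicate letters pair DMSO with TH588 libraries. Deviations from the group means correlated at -0.261, -0.355 and 0.008 for letters A, B and C. Deviations within a group of 3 depend on each other, so these correlations cannot decide whether the letters pair libraries. The replicate block left 7195 called genes, of which 7129 were among the 7852 called without it. In that fit the log2 fold changes of *BTG2*, *TOB1* and *BTG1* were 3.40, 1.36 and 1.04, the other adaptors had 2 genes lower and the partners 0 higher. The calls of *ERBB2* (0.27) and *TNRC6A* (-0.23) were lost, and CCR4-NOT subunits called lower went from 4 to 3. No member lost its call. Paired by letter, an exact test of either ratio gave p = 0.25, the smallest that 3 pairs allow. Depth limits genes near 0 most, since 3 counts are 0.112 CPM in TH588 replicate A.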

Other observations

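The rows named for the members or overlapping them were almost empty. The 5 pseudogene and divergent transcript rows *BTG2-DT*, *BTG4P1*, *TOB2P1*, *BTG3P1* and *BTG1P1*, and the 5 rows that overlap a member, held at most 3 counts in any library, and 10 counts in all. Of these 10 counts, 8 fell in TH588 replicate C, as 3 for *LINC01619*, 3 for *TOB2P1* and 2 for *BTG1P1*, and the other 2 in DMSO replicate C for *TOB1-AS1*. TH588 replicate C also held 4 of the 5 counts of *BTG4*. These values lie at or near the floor of 3 counts.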
